A study of Homo sapiens with 8 samples.

Results

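The JAK2 mutant line of KBM7 cells was compared with wild-type KBM7 cells in both treatments, without cytokine and with IFN-gamma, on 4 of the 8 arrays of the series. KBM7 is a near-haploid line established from a patient with chronic myeloid leukemia in blast crisis, and every sample here is KBM7. The 4 arrays held unstimulated wild type (the control named for the IFN-gamma experiment), wild type given 100 ng/ml IFN-gamma for 6 h, the unstimulated JAK2 gene-trap mutant and the same mutant given 100 ng/ml IFN-gamma for 6 h. The other 4 arrays were the TNF-alpha experiment: a second unstimulated wild type, wild type with 10 ng/ml TNF-alpha for 6 h, and a TNFRSF1A mutant without and with TNF-alpha. The labels name 1 mutant line per gene, called the JAK2 clone and the TNFRSF1A clone here, so loss of JAK2 and any other difference of that line from wild type cannot be told apart. Each of these 4 conditions was measured on a single Affymetrix PrimeView array within its experiment, and only unstimulated wild type has a second array, in the TNF-alpha experiment. A difference was therefore read as repeated only where both pairs of arrays gave it.

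JAK2 is a cytoplasmic tyrosine kinase bound to receptors such as that of IFN-gamma, the receptors of erythropoietin and thrombopoietin, and the shared beta chain of the IL-3 and GM-CSF receptors. When a cytokine joins the receptor chains, JAK2 and JAK1 phosphorylate the receptor and STAT proteins, which enter the nucleus and start transcription of target genes. In the blast-crisis cells used here the BCR-ABL1 fusion kinase drives growth signals of its own, including STAT5.

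A gene was compared where it is autosomal and reached a log2 intensity of at least 6 on at least 1 of the 8 arrays, which 11127 genes did. Its value was that of its brightest probe set, and a gene counted as lower or higher when the clone differed from wild type by at least 2-fold in the same direction in both pairs. The unstimulated pair and the IFN-gamma pair share no array. By this rule 171 genes fell in the JAK2 clone, 1.54% of those compared, and 20 genes rose, 0.18%. No gene was 2-fold apart in opposite directions in the 2 pairs. The genes that fell included a deubiquitinating enzyme of neurons (UCHL1), a granzyme B inhibitor (SERPINB9) and an imprinted Notch-like protein (DLK1). MHC class II genes and genes of inflammatory signalling were also among them. The raised genes included the cholesterol exporter ABCA1 and the transcription factor KLF2.

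The array medians were alike, between intensities of 63.9 and 66.9. The upper quartile of the 23 background probe sets of the array lay between log2 5.76 and 6.04, and a level under it is called the background range below. Between the wild-type cultures of the 2 experiments, 51 genes were lower and 54 higher by the same rule, 0.458% and 0.485% of the genes compared, although the second pair there had different cytokines. The 171 falls outnumber those wild-type differences, and the 20 rises do not. The 3' to 5' ratio of the actin control transcript, a sign of RNA degradation, was 4.41 and 4.81 in wild type against 5.74 and 6.47 in the JAK2 clone, and between 3.27 and 5.53 on the other 4 arrays. The same ratio for GAPDH ran from 1.09 to 1.27 over the 8 arrays, with the highest values, 1.27 and 1.25, in the JAK2 clone. The part of RNA quality in the differences below was not tested.

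JAK2 itself was checked by all of its 3 probe sets, and each of them read lower in the clone. The brightest gave log2 6.28 in wild type and 6.81 with IFN-gamma, against 5.08 and 5.32 in the clone. The second gave 5.97 and 6.74 against 3.90 and 3.61. The third gave 6.49 and 7.01 against 4.33 and 3.92. All of these clone values lie in the background range, so the fold may understate any true loss. Wild type was itself dim, and its 5.97 on the second probe set lay at the background quartile of that array. Counted down to the background quartile the brightest gave -0.41 and -1.06, which no longer passed the rule. The 6 arrays without the JAK2 mutation ran from 6.14 to 6.81 on the brightest probe set. The 6 compared genes nearest to JAK2 on chromosome 9, from CDC37L1 to ERMP1, differed by between -0.17 and 0.68 in either pair, so the low reading was not shared by its neighbours.

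UCHL1, a ubiquitin C-terminal hydrolase that is abundant in neurons and is seen in many tumours, was the gene that fell most. It read 11.80 in unstimulated wild type, 11.75 in wild type with IFN-gamma, 4.39 in the unstimulated clone and 4.75 in the clone with IFN-gamma. The wild-type arrays are bright and both clone arrays sit in the background range, with no overlap. The measured differences were -7.40 and -7.00 on the log2 scale, 169-fold and 128-fold, and counted only down to the background quartile they were -5.93 and -6.00. All 4 probe sets of UCHL1 passed the rule. The 6 other arrays, which include both mutants' controls and the TNFRSF1A clone, stayed between 11.12 and 11.83. The other compared members of the enzyme family did not pass: UCHL3 differed by 0.42 and 0.46, and UCHL5 by 0.19 and 0.34.

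SERPINB9, which blocks granzyme B and so shields cells from cytotoxic granules, also went to background. Wild type read 10.25 and 10.26 and the clone 4.0 and 3.88, again from bright to background, and the TNF-alpha experiment read from 9.45 to 10.01. The differences were -6.25 and -6.38, and -4.39 and -4.51 when counted down to the background quartile. Both of its probe sets that reached the level filter passed the rule, but the brightest is of the type that can take up signal from similar sequences. Without such probe sets its mean difference was -3.83, and with the mean of all its probe sets -2.59. SERPINB1, its compared neighbour on chromosome 6 and an inhibitor of neutrophil proteases, was 0.42 and 0.53 higher, short of the rule.

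DLK1, an imprinted membrane protein related to Notch ligands that is found on immature cells, kept a measurable level. That level was 12.85 and 12.87 in wild type and 7.07 and 7.16 in the clone, still above background, so the fall of -5.78 and -5.71 is a measured ratio of 54.9-fold and 52.2-fold. All 4 probe sets fell past the rule, but by unequal amounts: the smallest fall was -1.62 and -1.81. Each of the 4 is of the type that can take up signal from similar sequences. Against SERPINB9 the order depends on background: DLK1 fell less by the measured values and more, at -5.74 against -4.45 in the mean of both pairs, once levels were raised to the background quartile. The TNFRSF1A clone went the other way without passing the rule, at 13.94 and 14.01 against 13.23 and 13.21 in its own wild type. BEGAIN and RTL1, its compared neighbours on chromosome 14, differed by -0.03 and -0.06 and by -0.13 and -0.16. In wild type BEGAIN was already in the background range, at 5.96 and 5.84, and RTL1 was close to it, at 6.33 and 6.13. A fall of either could therefore hardly have been seen.

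Promoter sequences of 4 of the genes that fell most are shown because their transcripts read as background in the clone and bright elsewhere. UCHL1 and SERPINB9 have the largest measured differences, and TMEM263 and CRY1 are next to each other on chromosome 12 and were lost together. The windows are from RefSeq, build GRCh38.p14, and cover 250 bases before to 50 bases after the start of transcription, read 5' to 3' on the strand of the gene. Capitals mark CpG dinucleotides, the sites of DNA methylation in promoters. UCHL1 lies at chr4:41256678-41256977 on the plus strand, SERPINB9 at chr6:2903260-2903559 on the minus strand, TMEM263 at chr12:106955657-106955956 on the plus strand and CRY1 at chr12:107093500-107093799 on the minus strand.
UCHL1: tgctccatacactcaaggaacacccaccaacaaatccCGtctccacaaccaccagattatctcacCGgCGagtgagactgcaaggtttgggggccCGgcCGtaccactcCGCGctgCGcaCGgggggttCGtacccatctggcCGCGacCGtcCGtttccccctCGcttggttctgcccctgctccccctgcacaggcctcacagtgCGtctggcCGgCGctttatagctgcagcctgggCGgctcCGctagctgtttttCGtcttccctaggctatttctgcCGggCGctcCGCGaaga
SERPINB9: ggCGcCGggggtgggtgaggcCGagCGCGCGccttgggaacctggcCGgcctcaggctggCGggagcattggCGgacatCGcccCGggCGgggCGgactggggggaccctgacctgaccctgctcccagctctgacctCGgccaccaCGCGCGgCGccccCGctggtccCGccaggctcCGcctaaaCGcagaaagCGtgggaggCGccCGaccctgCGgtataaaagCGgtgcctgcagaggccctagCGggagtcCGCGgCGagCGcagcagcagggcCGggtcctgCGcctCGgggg
TMEM263: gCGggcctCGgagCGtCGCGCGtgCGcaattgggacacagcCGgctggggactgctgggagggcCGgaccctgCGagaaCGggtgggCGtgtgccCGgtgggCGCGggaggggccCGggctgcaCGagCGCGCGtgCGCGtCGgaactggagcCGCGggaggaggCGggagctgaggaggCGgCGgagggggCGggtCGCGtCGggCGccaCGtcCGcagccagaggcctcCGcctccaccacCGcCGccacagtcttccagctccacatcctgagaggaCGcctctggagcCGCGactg
CRY1: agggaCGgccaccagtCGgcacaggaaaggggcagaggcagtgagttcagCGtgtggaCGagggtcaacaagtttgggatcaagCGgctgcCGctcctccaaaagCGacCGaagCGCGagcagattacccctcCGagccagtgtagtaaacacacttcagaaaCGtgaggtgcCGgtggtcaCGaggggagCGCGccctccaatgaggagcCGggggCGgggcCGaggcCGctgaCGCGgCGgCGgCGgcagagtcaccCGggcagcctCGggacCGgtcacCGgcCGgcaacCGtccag
The 4 windows hold 25, 35, 41 and 31 CpG dinucleotides in that order, where the median over the 9113 compared genes with a window was 26. None of them holds TTCNNNGAA, a palindromic pattern bound by STAT dimers that reads the same on both strands, and 6.31% of all 9113 windows do. No methylation was measured in these samples. A comparison of the windows of all the genes that fell with those of other genes is void, since only 135 of the 171, 78.9%, had a window in the table, under the 80% needed.

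CRY1, a repressor of the circadian clock, read 8.03 and 8.08 in wild type and 3.79 and 4.06 in the clone. TMEM263, a small membrane protein, read 9.54 and 9.83 in wild type and 4.62 and 5.32 in the clone. Both were in the background range in the clone and nowhere else. The compared genes beside this pair did not move with it: RIC8B differed by 0.20 and 0.34, and PWP1 on the far side by 0.14 and 0.22.

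Of the further large falls, CNN3, an actin-binding calponin, went from 9.66 and 9.77 to 4.03 and 4.06. IAH1, an esterase, went from 9.87 and 9.87 to 4.26 and 4.99. Both stayed high in the TNF-alpha experiment, where IAH1 read between 10.32 and 10.34 on all 4 arrays. EMC10, a subunit of the complex that inserts membrane proteins at the endoplasmic reticulum, went from 8.96 and 8.86 to 4.10 and 4.17. It was as low in the TNFRSF1A clone, at 4.27 and 4.13, where the matching wild type read 7.88 and 8.05, so its loss was seen in both mutants.

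The next 7 falls by measured value, HDAC9 to IL23R, were between -3.16 and -3.83 in each pair. HDAC9, a class IIa histone deacetylase, read 8.07 and 7.74 in wild type and 4.24 and 4.14 in the clone, while the TNFRSF1A clone read 9.45 and 9.51, above its own wild type. DNAJC12, a co-chaperone, fell by 3.55 and 3.50. HOPX, a homeodomain protein of stem cells, fell by 3.39 and 3.60. These changes were steady between the pairs. CD9, a tetraspanin of megakaryocytes and of many progenitors, fell by 3.49 and 3.47, and CD200, a surface protein that restrains myeloid cells, by 3.31 and 3.49. QPCT, which forms N-terminal pyroglutamate, fell by 3.38 and 3.30, and IL23R, the specific chain of the IL-23 receptor, by 3.44 and 3.16. For CD200 and QPCT wild type itself was dim, near 6.7. Against the background quartile their difference was smaller than 2-fold in both pairs, so these falls rest on readings inside the background range. HDAC9, HOPX and IL23R also read in the background range in the clone. Counted down to the background quartile their mean differences were -2.09, -2.32 and -1.58. Each probe set of HOPX is of the type that can take up signal from similar sequences. Without such probe sets the mean difference of IL23R was -2.35.

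**Figure D1:**
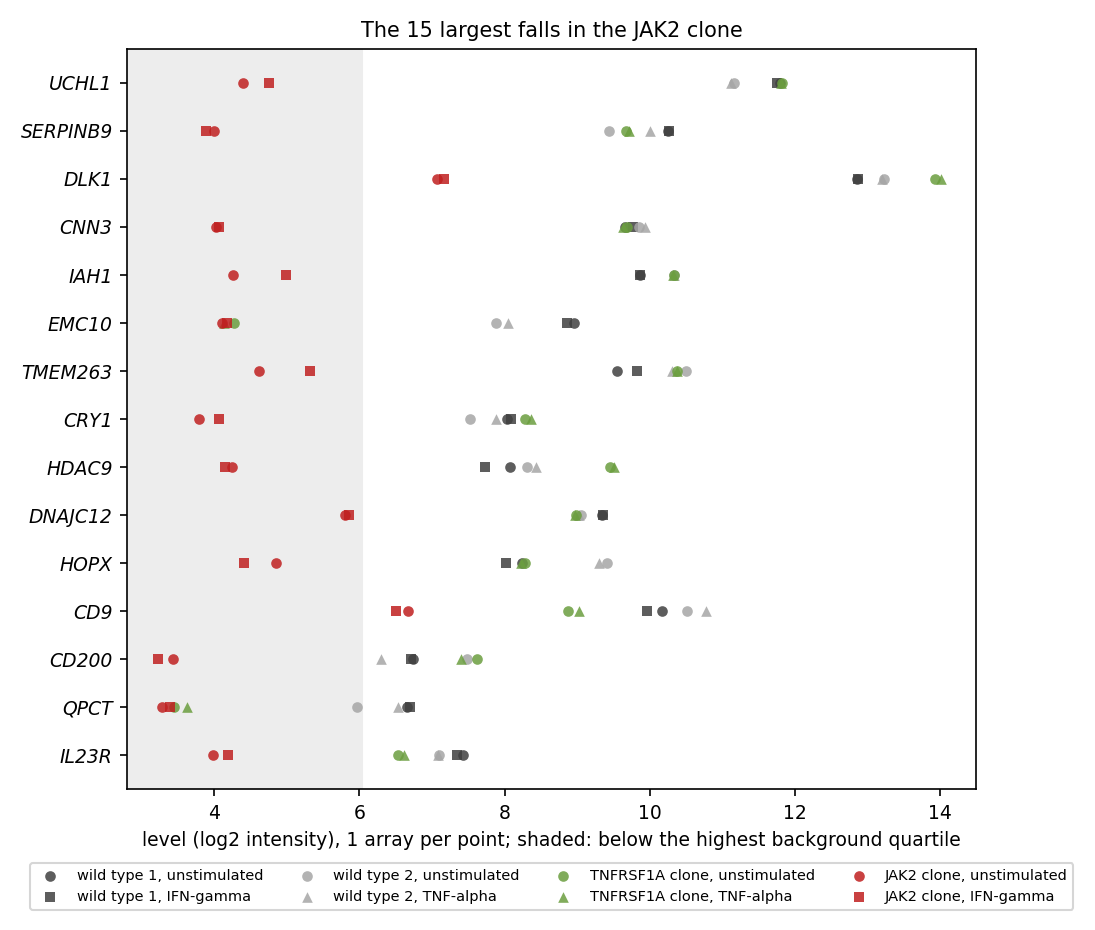
Level of the 15 largest falls on each of the 8 arrays (log2 intensity, 1 array per point), with the JAK2 clone in red, the 2 wild types in dark and light grey and the TNFRSF1A clone in green; shading marks levels below the highest background quartile, 6.04. The red points lie to the left of the wild-type points for every gene, UCHL1 goes from above 11 to under 5, DLK1 and CD9 stay above the shading, and for EMC10 and QPCT the green points join the red ones.

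Over all 171 genes that fell, the median difference of both pairs was -1.68, where the median of all compared genes was 0.03. Falls of at least 8-fold were few, 17 genes, and 54 fell at least 4-fold, while 117, 68.4%, lay between 2-fold and 4-fold. The difference in one pair was within 0.5 of that in the other for 145 of them. The clone was in the background range on both arrays for 80 of the genes, and 126 still passed when every level was raised to the background quartile of its array. For 155 both clone arrays lay below all 6 other arrays, which 18.2% of all compared genes did, and for 101 by at least 2-fold. Of the 84 with several probe sets at level, all probe sets passed for 39 and exactly 1 passed for 32.

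The fit with limma over the 8 arrays, which takes the clone-by-cytokine part that is left over as its error, gave a Benjamini-Hochberg adjusted p below 0.05 for 170 of the 171, and the exception was IER3 at 0.05774. The rule chose these genes on the same arrays and the fit called 10.6% of all compared genes lower and 15.1% higher, so it is no separate test of them. With 2-fold added, the fit called 213 genes lower, 1.91%, and 29 higher, 0.261%. The error of the fit measures how alike the 2 pairs were within each clone, the TNFRSF1A clone included. For IER3 the JAK2 pairs gave -1.91 and -1.92, and the TNFRSF1A pairs -0.01 and -2.50. The sources used here do not say that the arrays of a clone came from separate cultures.

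**Figure D2:**
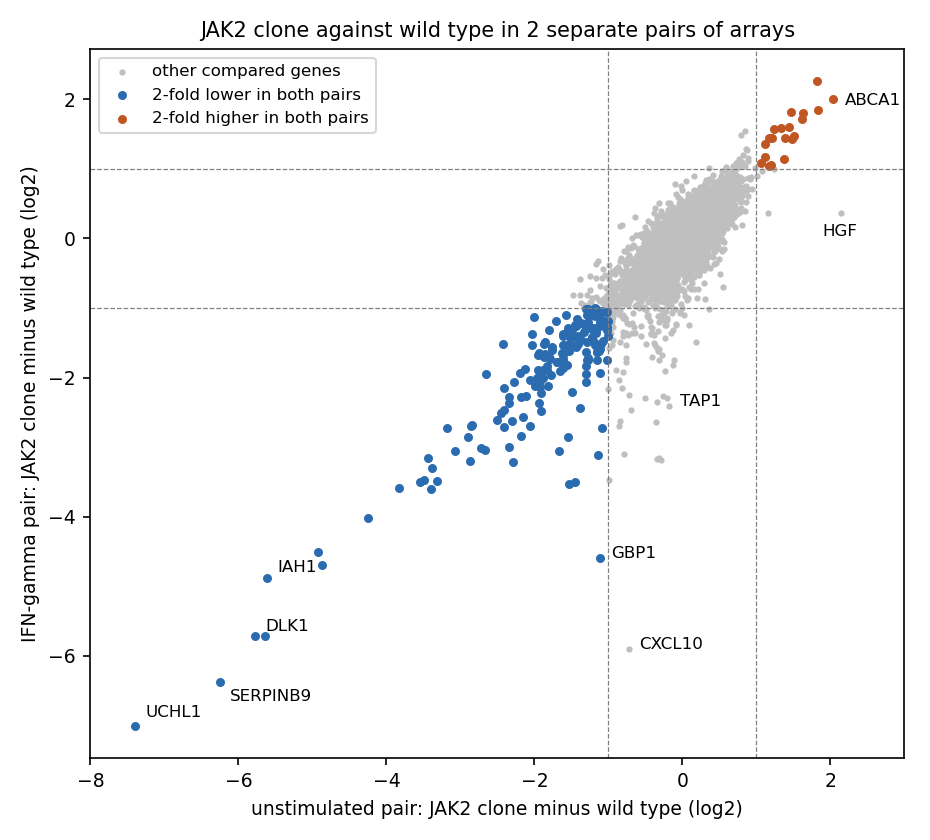
Difference of JAK2 clone minus wild type for the 11127 compared genes (log2), in the unstimulated pair on the x axis and in the IFN-gamma pair on the y axis; dashed lines mark 2-fold, blue the 171 genes lower and orange the 20 higher in both pairs. Most coloured points lie near the diagonal, HGF passes only on the x axis, and TAP1 and CXCL10 drop only on the y axis.

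The 20 genes that rose did so by less, with a median of 1.44 and 2 above 4-fold. Both clone arrays lay above all 6 others for all 20, which 26.7% of all compared genes did, and for 12 by at least 2-fold. With levels raised to the background quartile 16 still passed.

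RAB7B, a small GTPase of late endosomes in myeloid cells, read 7.43 and 6.73 in wild type and 9.24 and 8.99 in the clone. Its second probe set gave only 0.70 and 0.72, so the size depends on the probe set. ABCA1, which moves cholesterol and phospholipid out of cells onto apolipoprotein A-I, read 7.28 and 7.48 in wild type and 9.31 and 9.49 in the clone, a rise of 4.09-fold and 4.03-fold. The wild type of the TNF-alpha experiment was lower, 5.90 and 5.99, and the TNFRSF1A clone was in the background range at 4.54 and 4.43, so its level varied between the experiments as well as between the clones. Only 1 of its 3 probe sets reached the level filter.

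VGLL3, a cofactor of TEAD transcription factors, rose from 6.31 and 6.33 to 8.14 and 8.17, and it too was low in the TNFRSF1A clone, at 4.33 and 4.32. HOXD13, a homeobox gene of the posterior body, rose from 5.66 and 5.55, in the background range, to 7.28 and 7.35. KLF2, a zinc finger factor of quiescent lymphocytes and endothelium, rose from 7.21 and 7.15 to 8.82 and 8.86. In each of these 3 the clone arrays stood above the other 6, which 26.7% of all compared genes did. The second probe set of KLF2 moved by only 0.40 and 0.44.

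PRTN3, proteinase 3 of neutrophil granules, rose by 1.46 and 1.82, and its neighbour on chromosome 19, CFD, also passed the rule. NPL, a lyase of sialic acid, rose by 1.44 and 1.61. Both started from wild-type levels in the background range, and against the background quartile both lost the call, PRTN3 at 0.85 and 1.25 and NPL at 0.90 and 1.13. TRDC, the constant segment of the T cell receptor delta chain, rose from 9.39 and 9.49 to 10.88 and 10.92, and all 3 of its probe sets passed. DNMT3L, a cofactor of the de novo DNA methyltransferases, rose from 7.14 and 7.05 to 8.52 and 8.50 on its only probe set. CRADD, a death-domain adaptor of caspase-2, rose by 1.34 and 1.58, FAM229B by 1.24 and 1.58, and CFAP70, a protein of cilia, by 1.51 and 1.47 from a wild-type level in the background range. Against the background quartile the difference of CFAP70 was -0.10 and 0.26. Set against the wild-type arrays of the TNF-alpha experiment, DNMT3L was higher by 0.64 and 0.90 and CRADD by 0.94 and 1.03, both short of the rule. PRTN3, NPL, TRDC, FAM229B and CFAP70 passed in that setting.

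HGF, hepatocyte growth factor, the ligand of the MET receptor, had been put forward as a marker of the clone and did not pass the rule. Its brightest probe set read 8.35 in unstimulated wild type, 10.14 in wild type with IFN-gamma, and 10.49 and 10.51 in the clone. The clone was thus higher by 2.15 without cytokine and by 0.37 with it, because wild type with IFN-gamma was 1.79 above unstimulated wild type while the clone differed by 0.01. Of its 4 probe sets 1 passed in both pairs, at 2.11 and 1.15. The TNF-alpha experiment read between 6.78 and 7.59, so the unstimulated wild types of the 2 experiments differed by -1.57. HGF is high in the clone in both treatments, and the wild-type level with which it is compared varied.

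**Figure D3:**
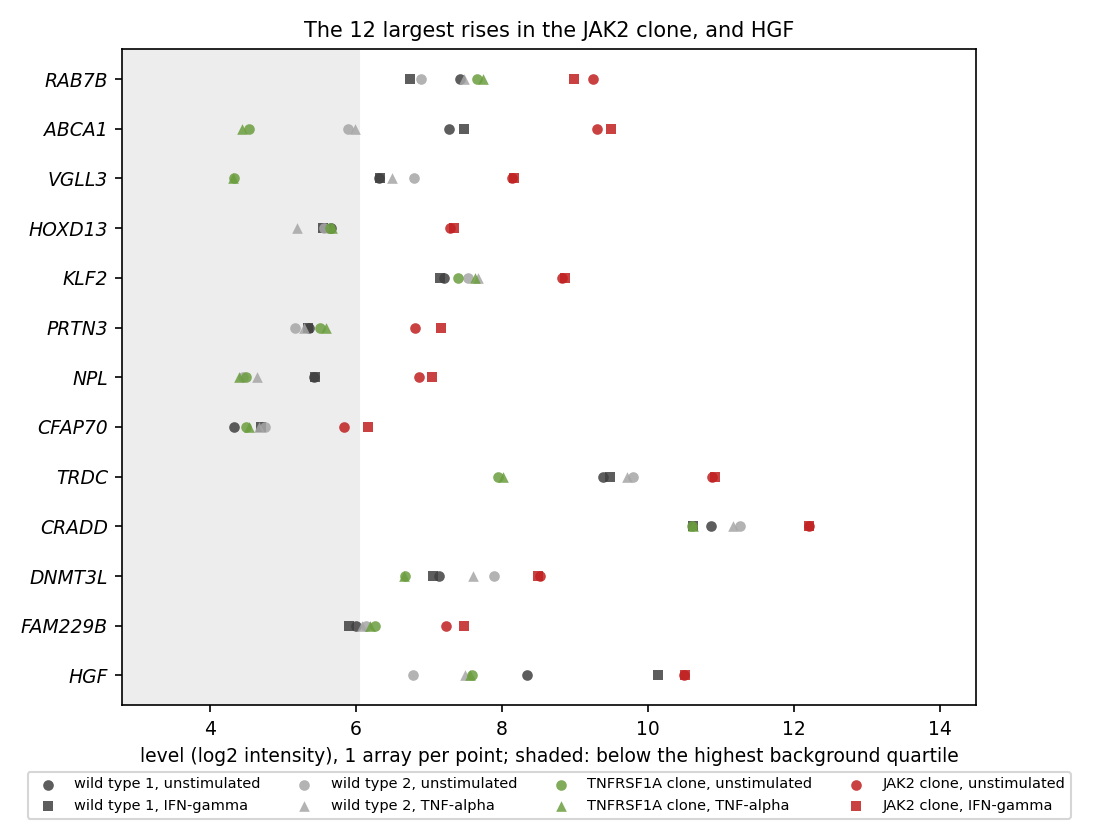
Level of the 12 largest rises and of HGF on each of the 8 arrays (log2 intensity, 1 array per point; colours mark the JAK2 clone, both wild types and the TNFRSF1A clone, and the shading lies below 6.04). The red points of the JAK2 clone lie to the right for each gene, the TNFRSF1A points of ABCA1 and VGLL3 lie far to the left, and for HGF wild type with IFN-gamma sits close to the clone.

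Few genes of the JAK2 pathway passed the rule, as few genes did overall (1.54%). Of 13 compared kinases, STATs and interferon receptors 1 fell, JAK2, and none rose; the median of the list was 0.13. JAK1, the partner kinase at the IFN-gamma receptor, differed by 0.13 and 0.20, and the receptor chains IFNGR1 and IFNGR2 by -0.07 and 0.08 and by -0.32 and -0.23. JAK3 read 6.63 and 7.20 in wild type against 5.82 and 5.80, which is -0.80 and -1.40 and short of the rule. None of 14 feedback and target genes passed in both pairs. The lowest of them was SOCS1, a feedback inhibitor of JAK kinases, at 7.84 and 9.72 in wild type against 7.15 and 7.26, a difference of -0.69 and -2.46 with the clone below all 6 other arrays. The limma fit gave an adjusted p below 0.05 for 7 of the 14, against 10.6% lower and 15.1% higher of all compared genes. The 10 compared receptors of haematopoietic cytokines had no call either, and the beta chain shared by IL-3 and GM-CSF, CSF2RB, was the lowest at -1.22 and -0.86.

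In the IFN-gamma pair alone 291 genes were 2-fold lower, 2.62%, against 207, 1.86%, in the unstimulated pair. Higher were 39 genes, 0.35%, and 25 genes, 0.225%. Of the 120 genes lower only with IFN-gamma, 55 were raised 2-fold by IFN-gamma in wild type and 65 were not. IFN-gamma raised 69 genes 2-fold in wild type, 0.62%, and lowered 0, and over these 69 the median clone difference was -0.34 without cytokine and -1.67 with it. TAP1, the peptide transporter of MHC class I, and CIITA, the master regulator of class II, belong there: TAP1 differed by -0.17 and -2.41 and CIITA by 0.18 and -1.49. Of the 171 genes 7 were among the 69, and the other 164 were not raised 2-fold by IFN-gamma in wild type.

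MHC class II genes, which present peptides to CD4 T cells, were lower at rest as well. Of 11 compared, 4 fell and none rose, where 1.54% of all compared genes fell and 0.18% rose. The median was -0.69 against 0.03 over all genes. HLA-DPB1 read 8.37 and 8.52 in wild type against 6.19 and 5.69, and HLA-DPA1 8.33 and 8.24 against 6.17 and 5.68. HLA-DRA read 12.45 and 12.50 against 10.92 and 10.87. HLA-DRB1 fell by 1.06 and 1.19, and the invariant chain CD74, at -0.84 and -0.81, did not pass. For each of these 5 the clone lay below all 6 other arrays, which 18.2% of all compared genes did. CIITA itself read 6.40 in unstimulated wild type and 6.59 in the unstimulated clone.

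Antiviral interferon-stimulated genes were below wild type in the mean of both pairs for all 29 compared, and 4 fell in both pairs. Over all 11127 compared genes 4994 were below wild type in that mean, and 1.54% fell. IFIT2 read 9.63 and 12.28 in wild type and 8.10 and 8.75 in the clone, and its neighbour IFIT3 read 8.84 and 11.17 against 7.70 and 8.06. Both belong to a family of interferon-induced proteins that restrain viral replication. RSAD2, or viperin, fell by 1.38 and 2.43 and the exonuclease ISG20 by 1.31 and 1.95. For IFIT2 and for RSAD2 1 of 2 probe sets at level passed. The list's median was -0.44 in the unstimulated pair and -1.19 in the IFN-gamma pair, so part of the gap was there without added cytokine. MHC class I and peptide-loading genes had 0 calls of 18 in both pairs by the rule, with medians of -0.19 and -0.90. Against the wild-type arrays of the TNF-alpha experiment, which had no IFN-gamma, the median of the antiviral list was -0.06 in the mean of both pairs, where the main value was -0.77.

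Inflammatory chemokine and cytokine genes fell in 4 of 17 cases and rose in none, where 1.54% of all compared genes fell and 0.18% rose. LTB, lymphotoxin beta, read 11.94 and 11.94 in wild type against 9.49 and 9.42. CCL5 read 8.75 and 8.65 against 6.80 and 6.75, CXCL8, the neutrophil attractant IL-8, 11.72 and 11.72 against 9.87 and 10.06, and CCL3 8.13 and 8.10 against 6.51 and 6.37. CXCL10 differed by -0.73 and -5.90, which is a difference of the IFN-gamma pair.

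The list of NF-kappaB subunits, inhibitors and survival targets had 3 falls of 19, against 1.54% of all compared genes, and a median of -0.22. TNFAIP3, or A20, a brake on NF-kappaB, read 9.06 and 9.32 in wild type against 6.71 and 7.04. IER3 read 8.50 and 8.49 against 6.59 and 6.58, and BCL2A1, a survival factor of the BCL2 family, fell by 1.55 and 2.86. The unstimulated wild type of BCL2A1 read 5.97, at the background quartile, and counted down to that quartile its differences were -0.11 and -1.65, which leaves 2 of the 3 falls. In the TNF-alpha experiment wild type with TNF-alpha was far above its control for TNFAIP3, at 11.96 against 9.60. NFKBIA, the inhibitor of NF-kappaB, was -0.79 and -0.82 and did not pass.

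Genes of the ATF4 and CHOP stress response, which cells turn on when amino acids run short or the endoplasmic reticulum is loaded, had 3 falls of 25, no rise and a median of -0.55. The share of falls over all compared genes was 1.54%. With the mean of all probe sets 1 of 23 fell. Against the wild-type arrays of the TNF-alpha experiment 11 of 25 fell, as did 326 of all 11127 compared genes. DDIT3, which encodes CHOP, read 8.42 and 8.54 in wild type against 6.54 and 6.54. TRIB3, a pseudokinase induced by CHOP, read 11.17 and 11.16 against 9.85 and 9.82, and 1 of its 2 probe sets at level passed. SLC7A11, the cystine transporter, fell by 1.07 and 1.48. Below the mean of wild type were 23 of the 25, and in the TNFRSF1A clone the list's median was 0.06. Against the wild-type arrays of the TNF-alpha experiment the median of this list was -0.94. That of the chemokine and cytokine list was -1.23, where its main value was -0.52. The second pair there sets the clone with IFN-gamma against wild type with TNF-alpha. Wild type with TNF-alpha was above its own control by 1.88 for LTB, 0.96 for CCL5, 0.87 for CXCL8 and 0.72 for CCL3. The part of TNF-alpha in these medians was not tested.

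**Figure D4:**
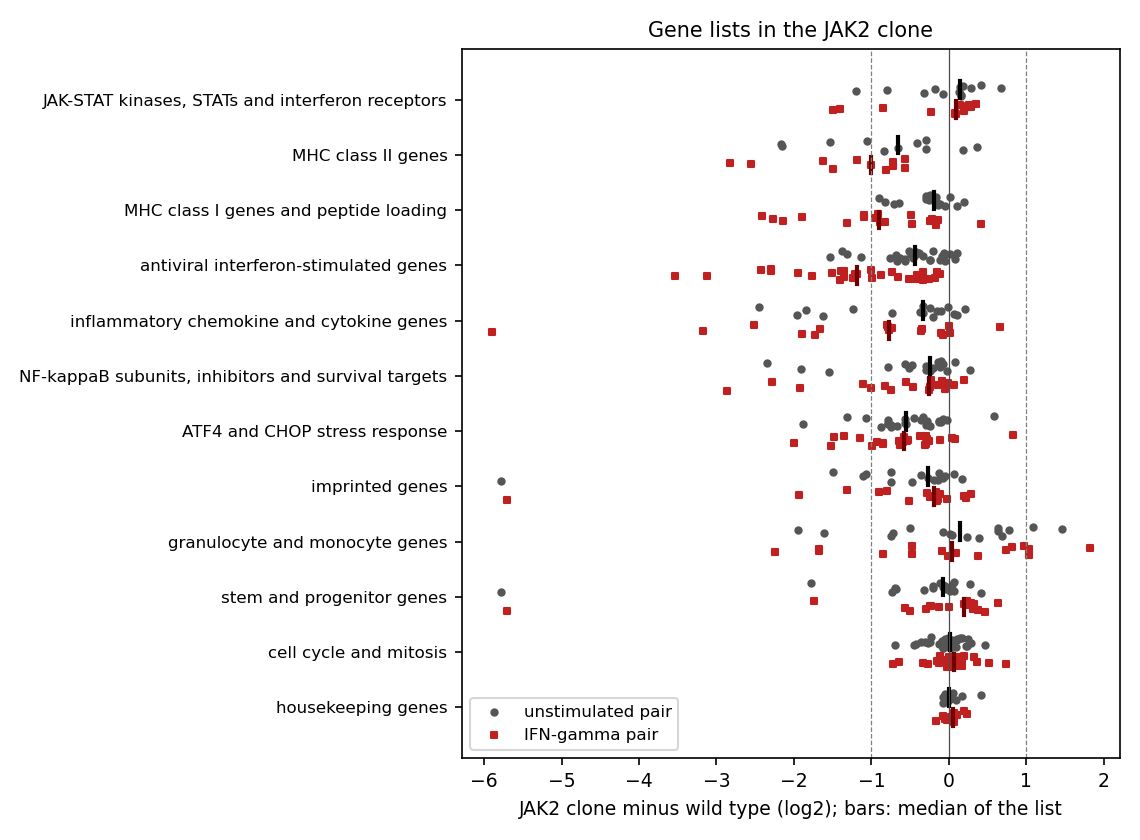
Difference of JAK2 clone minus wild type (log2) for every compared member of 12 gene lists, in grey for the unstimulated and in red for the IFN-gamma pair, with a bar at each median and dashed lines at 2-fold. Housekeeping and cell cycle genes stay between the dashed lines, MHC class II and stress-response genes are shifted to the left in both pairs, and antiviral and MHC class I genes are shifted further in the IFN-gamma pair.

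Blood cell markers did not move as 1 group. Beside their counts stand the shares over all compared genes, 1.54% fallen and 0.18% risen. Of 16 compared granulocyte and monocyte genes, MS4A3 and the integrin chain ITGAM fell and PRTN3 rose, with a median of 0.08. MS4A3, a marker of granulocyte progenitors, read 8.42 and 8.29 in wild type against 6.47 and 6.61. ITGAM, or CD11b, read 6.91 and 6.92 against 5.30 and 5.25. It fell in the TNFRSF1A clone too, to 4.96 and 5.01 against 6.38 and 6.21 in that clone's own wild type. MPO, myeloperoxidase, was 0.78 and 1.04 higher and missed the rule. Of 19 stem and progenitor genes DLK1 and SPINK2 fell, SPINK2 from 9.77 and 9.68 to 7.98 and 7.95, and CD34 was -0.74 and -0.50.

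Among markers of other blood cells the counts were 0 of 6 erythroid genes, 1 of 8 megakaryocyte genes (CD9), 0 of 5 mast cell genes, 1 of 9 T and NK cell genes (IL2RB) and 1 of 7 B cell genes (EBF1), all falls. By comparison 1.54% of all compared genes fell. Against the wild-type arrays of the TNF-alpha experiment 3 of the 5 mast cell genes fell, with a median of -1.06 in place of -0.41. In that setting 326 of all 11127 compared genes fell. The fall of IL2RB is lost when levels are raised to the background quartile, at -0.54 and -0.77. IL2RB was also lower in the TNFRSF1A clone, by the measured values at -1.29 and -1.40. EBF1, the B-lineage transcription factor, read 7.32 and 7.01 in wild type against 4.67 and 5.06. In a bulk sample fewer cells with a transcript and less of it per cell cannot be told apart. None of 35 compared cell cycle genes and none of 10 housekeeping genes passed, with medians of 0.01 and 0.01.

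Of 17 compared imprinted genes 3 fell: DLK1, the inflammasome gene NLRP2 by 1.11 and 1.93, and ZDBF2 by 1.49 and 1.32. PLAGL1 was -1.07 and -0.90. The share of falls over all compared genes was 1.54%. Of 19 genes listed for the DNA methylation and silencing machinery none passed, and DNMT1 read 12.15 and 12.12 in wild type against 12.17 and 12.11. That list leaves out DNMT3L, which rose by the rule, and HDAC9, which fell. Of 16 Notch genes 2 fell, DLK1 and the ligand DLL1, which read 9.33 and 9.51 against 7.71 and 7.98. For DLL1 1 of 3 probe sets at level passed, and with the mean of all probe sets 1 of 13 Notch genes fell. HES1, a target of Notch, was -1.16 and -0.84.

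Other lists had few members past the rule, by which 1.54% of all compared genes fell and 0.18% rose. Of 24 immediate early genes NR4A3 and EGR3 fell and KLF2 rose, with NR4A3 at 7.37 and 7.33 in wild type against 5.11 and 5.26. EGR3 read 7.87 and 8.16 against 6.84 and 6.88. The wild type of the TNF-alpha experiment was lower, at 5.95 and 6.60 for NR4A3 and 7.05 and 7.64 for EGR3. The unstimulated clone was less than 2-fold below the unstimulated wild type there, so both falls depend on the wild type used. Of 10 compared HOX genes HOXC6 fell by 1.20 and 1.28 and HOXD13 rose. HOXC6 was lower in the TNFRSF1A clone as well, at -1.12 and -1.24. Of 26 genes of glycolysis and hypoxia ADM, the vasodilator adrenomedullin, fell by 1.16 and 1.75, and PFKFB4 by 1.08 and 1.18. PFKFB4 passed on 1 of its 2 probe sets at level. Against the wild-type arrays of the TNF-alpha experiment 9 of the 26 genes fell, as did 326 of all 11127 compared genes. Of 32 actin and adhesion genes CNN3 and GJA1 fell, and of 3 compared clade B serpins SERPINB9. The medians of these lists lay between -0.22 and 0.40. The members named were picked by the rule on the same values, so their distance from these medians is no separate result.

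Around ABCA1, the 10 compared targets of the sterol receptor LXR had 1 rise, ABCA1, and 1 fall, the apolipoprotein APOC1 by 1.01 and 1.32. The shares over all compared genes were 0.18% risen and 1.54% fallen. The related exporter ABCG1 was lower, at -1.02 and -0.71, and SREBF1 was 0.52 and 0.52 higher, both short of the rule. Of 14 genes of cholesterol synthesis and uptake 1 fell, HMGCS1, which makes HMG-CoA, by 1.00 and 1.40. Among 13 compared genes around HGF and other growth factors only PDGFA fell, by 1.29 and 1.48. Of its 3 probe sets at level 1 passed, and with the mean of all probe sets 0 of 10 genes of that list fell.

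The TNFRSF1A clone was read by the same rule in its own experiment, with which the JAK2 comparison shares no array. There 54 genes fell, 0.485%, and 22 rose, 0.198%. By the rule 20 genes fell in both clones, 11.7% of the 171 and 37.0% of the 54. Besides EMC10, HOPX, CD9 and QPCT these include FABP3, a fatty acid carrier, which read 7.82 and 7.84 in wild type, 4.75 and 4.79 in the JAK2 clone and 4.89 and 5.54 in the TNFRSF1A clone. GJA1, or connexin 43, read 8.93 and 8.99 in wild type and 6.87 and 6.95 in the JAK2 clone. In the TNFRSF1A clone it read 4.40 and 4.89. ITGAM, IL2RB and HOXC6 are also among the 20. HOPX and CD9 kept a level above the background range in the TNFRSF1A clone. HOPX read 8.28 and 8.23 there, against 9.41 and 9.30 in its own wild type. The wild type of the IFN-gamma experiment read 8.24 and 8.02 for HOPX, so that fall depends on the wild type used. CD9 read 8.87 and 9.02 against 10.52 and 10.77.

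A further 5 of the 171 were higher in the TNFRSF1A clone, namely HDAC9, SPP1, MGMT, FYB1 and COL2A1. MGMT, which repairs O6-alkylguanine in DNA, read 6.68 and 6.65 in wild type and 4.55 and 4.77 in the JAK2 clone, but 9.49 and 9.33 in the TNFRSF1A clone. Counted down to the background quartile, MGMT, SPP1 and COL2A1 no longer passed as falls in the JAK2 clone. Of the 20 genes that rose, 4 were lower in the TNFRSF1A clone (NKD2, TRDC, VGLL3 and ABCA1) and 0 were higher. Over the 171 genes the median difference of the TNFRSF1A clone was -0.09, and over the 20 it was -0.15.

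**Figure D5:**
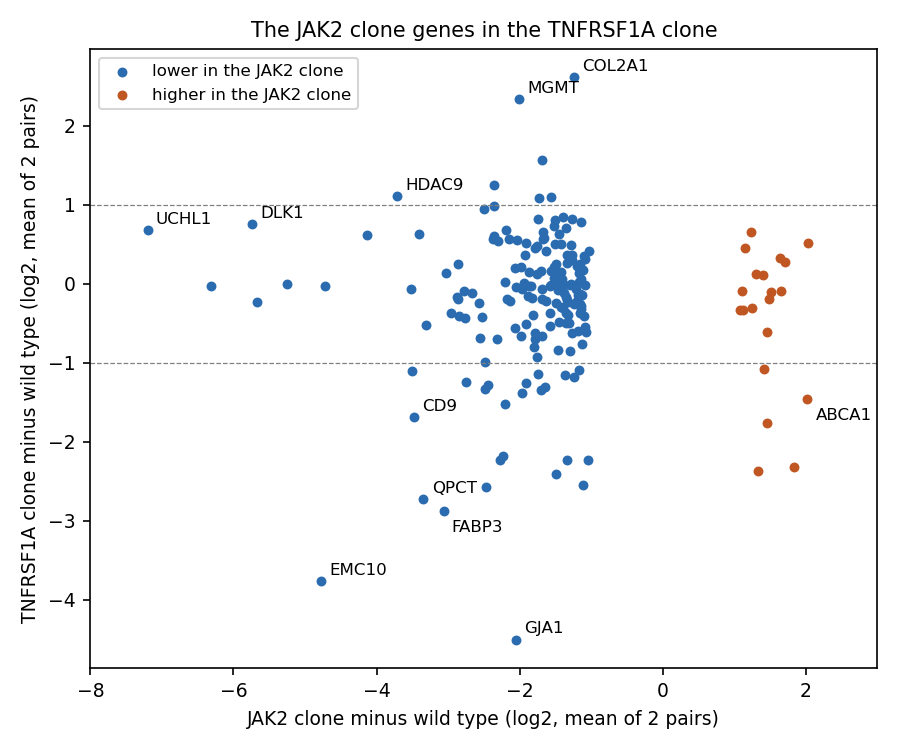
Mean difference from wild type of the TNFRSF1A clone (y axis, log2) against that of the JAK2 clone (x axis, log2) for the 171 genes lower (blue) and 20 higher (orange) in the JAK2 clone; dashed lines mark 2-fold in the TNFRSF1A clone. UCHL1 and DLK1 are low only on the x axis, EMC10, QPCT, FABP3 and GJA1 are low on both, and MGMT and COL2A1 are low on the x axis and high on the y axis.

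The genes that fell were spread over the chromosomes. There was no run of 3 or more neighbouring compared genes called in the same direction, and 8 runs of 2. Besides TMEM263 with CRY1 and PRTN3 with CFD, these were IFIT2 with IFIT3, MS4A3 with MS4A7, APOC1 with APOC2, QPCT with CDC42EP3, HOPX with SPINK2, and HLA-DPA1 with HLA-DPB1. Several of these pairs are members of 1 gene family. The share of compared genes that fell was highest on chromosome 6, which holds the MHC, at 18 of 583 or 3.09%.

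At the edge of the rule, PXDC1 was just inside at -1.001 and -1.188 and CASP1 just outside at -0.999 and -2.166. Among rises TUBB3 was inside at 1.196 and 1.053 and POLR3G outside at 1.238 and 0.996. The list of 171 thus has no gap at its lower end, and 38 genes outside the rule were lower by at least 0.9 in both pairs.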

How the data were processed

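The authors' deposited values are a normalized intensity per probe set, for which the submitters' processing notes name RMA and version 1.1 of Affymetrix Expression Console. They are on a linear scale, although log2 values had been assumed, and log2 was taken first. RMA equalises the arrays' distributions, so a shift of most genes would not be seen. Probe sets were named from the platform annotation, with symbols updated against the RefSeq table of GRCh38.p14: of 49395, 44994 had 1 gene, 1832 several and 2569 none. Each gene was represented by whichever of its own probe sets was brightest on average across the 8 arrays, giving 18132 genes, of which 11529 reached log2 6 and 402 were not autosomal. Differences of 2 arrays were called at 2-fold in both pairs, with no p-value. An alternative limma 3.58.1 fit (R 4.3.3) on log2 values had terms for both clones, both cytokines and the experiment, leaving 2 residual degrees of freedom, and was tested on simulated data. Tables were made with pandas 2.3.3 in Python 3.11.15.

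The members and the 30 gene lists were chosen with earlier results of these data known. Named genes were JAK2, UCHL1, DLK1, HGF and ABCA1, the 15 largest falls and 12 largest rises, list members past the rule or else up to 3 with large differences, neighbouring called genes and genes differing in 1 pair. A few others (JAK1, IFNGR1, IFNGR2, CD34, MPO, DNMT1, NFKBIA, SREBF1, members shared by the clones and neighbours of leading genes) were added with their values known. The alternatives tried were other folds, level filters, probe set rules, normalizations and wild-type arrays. The array number limits precision.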

Additional observations from a re-analysis of the deposited data

Results flagged for a closer look

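Probe sets without a single gene name were left out of every comparison above. Of the 2116 that reached log2 6, 33 were 2-fold lower and 7 were 2-fold higher in the JAK2 clone in both pairs, a signal in data that were not otherwise used. Their genes are not named here.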

How the results depend on the processing

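The count of 171 falls and 20 rises depended most on the wild-type arrays and the fold. Against the wild-type arrays of the TNF-alpha experiment 326 genes were lower and 223 higher, of which 137 and 14 were among the 171 and the 20. The second pair in that setting holds the clone with IFN-gamma and wild type with TNF-alpha. At 1.5-fold the counts were 361 and 140, and at 3-fold 74 and 5. Genes reaching log2 8 gave 106 and 12. The mean of all probe sets of a gene gave 106 falls. The IFN-gamma pair alone gave 291 and 39. Asking for 2-fold beyond all 6 other arrays, chosen after seeing the data, gave 101 and 12. The cause of these shifts was not tested beyond what each choice does by construction. The 20 genes shared with the TNFRSF1A clone became 50 at 1.5-fold, 8 at 3-fold, 11 with the mean of probe sets and 13 with values raised to the background quartile. Runs of neighbours were 0 at 3 genes and 8 at 2 genes. With no level filter (182 and 21), loess (181 and 20), further quantile normalization (168 and 19), no cross-hybridising probe sets (162 and 17) and the limma fits the counts moved by less than 1.5 times. For the 29 leading genes 197 values were recomputed, 46 moved and 0 reversed. Against the wild-type arrays of the TNF-alpha experiment the medians of 8 of the 30 gene lists moved and 22 did not. No paired analysis was possible because the groups compared share fewer than 2 replicate numbers in the labels. Arrays matched by treatment could be fitted: limma on the 4 arrays with terms for clone and IFN-gamma, with 1 residual degree of freedom, called 236 genes and the fit on 8 arrays 242.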

Other observations

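Some further genes that fell are given here as single values, picked from the 171 after their values were seen and not as a tested group. Each of them stayed above the background range. PTGER4, a prostaglandin E2 receptor, differed by -1.77 and -1.96, and CXCR4, the receptor of CXCL12, by -2.19 and -1.94. CD52 differed by -2.35 and -2.36, and the transcription factor RUNX3 by -2.41 and -2.72. PDE4D, which breaks down cyclic AMP, differed by -1.41 and -1.41, and SMAD3, a mediator of TGF-beta signals, by -1.42 and -1.15. Of the probe sets at level 1 of 3 passed for PDE4D and 1 of 2 for SMAD3.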
